A study of Mus musculus with 14 samples.

Results

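Polycomb repressive complex 2 (PRC2) was followed at its own genes. The 10 genes Ezh1, Ezh2, Eed, Suz12, Jarid2, Mtf2, Phf19, Aebp2, Rbbp4 and Rbbp7 were chosen by name, because their proteins are subunits of this complex, and not by any measured value. All 10 were found among 55413 annotated mouse genes, 21938 of them protein-coding. For each gene, the called regions of 5 antibodies were counted and placed in control cells and after knockdown of Smarcb1. The promoter, set as 1 kb to either side of the transcription start site (TSS), was kept apart from the gene body, which ran from 1 kb past the TSS to the transcription end site (TES).

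Chromatin was immunoprecipitated from 81K1 cells, a mouse embryonic stem cell (ESC) line made from the OG2 line. At the Rosa26 locus they carry a cassette whose shRNA, induced by doxycycline, is directed against Smarcb1, a core subunit of the BAF chromatin remodelling complex. Control cells carried the cassette and were left untreated, whereas Smarcb1 kd cells received doxycycline daily at 1 µg per ml and were collected after 72 h, so that effects of doxycycline itself cannot be told apart from those of the knockdown. Antibodies were directed against Smarca4, the ATPase of the BAF complex, against Ezh2, and against the histone marks H3K27me3, H3K27ac and H3K4me3, with 1 library per antibody and condition, and 81K1 derives from a single clone.

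PRC2 places methyl groups on lysine 27 of histone H3 and thereby helps to keep developmental genes silent in ESC. Ezh2 and its paralogue Ezh1 are the alternative catalytic subunits, Eed reads the trimethylated mark, Suz12 holds the core together, and Rbbp4 and Rbbp7 are interchangeable histone chaperones. Mtf2 and Phf19 are Polycomb-like proteins that define PRC2.1, whereas Jarid2 and Aebp2 define PRC2.2, and both groups help to bring the core to its targets. H3K27ac occupies the same lysine and marks active promoters and enhancers, H3K4me3 marks promoters, and a promoter with H3K4me3 and H3K27me3 together is called bivalent.

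The lists held between 5364 and 79014 regions, and they carry no read counts, so that the depth behind a call is unknown and a missing call is no measured loss. In a bulk sample, fewer cells with a mark and less of the mark per cell cannot be told apart either. By the methods, Smarca4 and H3K27me3 were processed by Active Motif and the other antibodies in the laboratory of the authors, so differences between these antibodies cannot be told apart from differences between laboratories. The labels name 1 core facility for all libraries. Of 8 genes that mark ESC, 7 carried an H3K4me3 island at the promoter in both conditions and 6 in control and 7 in kd an H3K27ac island. H3K27me3 was called at 2 of these 8 in control and at 1 in kd. Of 16 genes that mark fibroblasts, endoderm, mesoderm, neural cells or trophoblast, none carried an H3K27ac island in either condition, while H3K27me3 was called at 14 of them in control and 15 in kd and H3K4me3 at 7 and 9. The level of Smarcb1 itself cannot be read from lists of regions.

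Sequences directly upstream of the TSS are shown for 4 of the genes, each for a different pattern of regions described further below. Phf19 was the only gene with Ezh2 at its promoter, Suz12 stands for the active promoters, Aebp2 gained an H3K27me3 call in kd, and at Rbbp4 the Smarca4 calls left these bases uncovered in control and covered them in kd. The sequences are from RefSeq (GRCm38.p6) and run 5′ to 3′ on the strand of the gene. They cover chr2:34914027-34914226 on the minus strand (Phf19), chr11:79992856-79993105 on the plus strand (Suz12), chr6:140622413-140622662 on the plus strand (Aebp2) and chr4:129335371-129335620 on the minus strand (Rbbp4), and none of their bases belongs to the annotated gene. Capitals mark matches, on either strand, to the 6 motifs searched.
Phf19: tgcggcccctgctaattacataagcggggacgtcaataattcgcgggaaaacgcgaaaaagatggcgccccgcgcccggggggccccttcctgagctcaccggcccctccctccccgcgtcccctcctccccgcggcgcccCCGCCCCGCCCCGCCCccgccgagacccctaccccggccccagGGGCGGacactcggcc
Suz12: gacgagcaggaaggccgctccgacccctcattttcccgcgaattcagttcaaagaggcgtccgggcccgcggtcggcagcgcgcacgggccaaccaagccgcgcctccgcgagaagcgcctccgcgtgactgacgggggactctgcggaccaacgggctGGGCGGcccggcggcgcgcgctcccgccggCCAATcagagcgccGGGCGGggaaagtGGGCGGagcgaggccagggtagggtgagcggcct
Aebp2: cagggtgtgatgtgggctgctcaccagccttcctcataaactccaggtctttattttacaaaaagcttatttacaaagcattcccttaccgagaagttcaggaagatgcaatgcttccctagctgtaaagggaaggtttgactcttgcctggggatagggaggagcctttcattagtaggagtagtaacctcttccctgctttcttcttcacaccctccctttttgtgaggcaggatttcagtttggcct
Rbbp4: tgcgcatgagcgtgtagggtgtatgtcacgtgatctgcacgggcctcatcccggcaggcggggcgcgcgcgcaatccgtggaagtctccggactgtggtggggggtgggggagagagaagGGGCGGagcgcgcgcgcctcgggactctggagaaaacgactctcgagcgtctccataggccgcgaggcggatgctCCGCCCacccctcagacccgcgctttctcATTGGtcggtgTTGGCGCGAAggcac
Sp and Klf factors were searched as GGGCGG, NF-Y as CCAAT, and Ets factors as CCGGAAG. E2F factors were searched by the motif TTGGCGC, for which TTCGCGC was also allowed. The TATA box was searched as TATAAA and the core of the Nrf1 motif as GCATGCG. In the 200 bases of Phf19, GGGCGG matched 4 times, and 3 of the matches overlapped on the opposite strand. Suz12 held 3 GGGCGG matches and 1 CCAAT match. At Rbbp4, 2 E2F matches overlapped on opposite strands, next to a CCAAT match on the opposite strand. Aebp2 held none of the motifs and a single CpG dinucleotide, against 25 at Phf19, 37 at Suz12 and 30 at Rbbp4. Among the 14 RefSeq promoters of the 10 genes, taken as the 250 bases before each start, CCAAT was found in 7 promoters and in 33.9% of all 32841 promoters, and GGGCGG was found in 9 promoters and in 32.7% of all promoters. Each of these motifs occurred at 7 of the 10 genes. The E2F motif, present in 3.14% of all promoters, occurred at Rbbp4 alone, TATAAA (12.4%) at Jarid2 alone, and CCGGAAG (6.91%) and GCATGCG (3.02%) at none. A match is a run of letters, not a measured binding site.

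The PRC2 genes divided into 9 with the marks of active promoters and 1, Phf19, with those of a Polycomb target. Smarca4 was called at all 10 promoters in both conditions, beside 62.5% of all protein-coding genes in control and 63.5% in kd. H3K4me3 islands were likewise called at all 10 promoters in both conditions (background 56.6% and 60.4%). H3K27ac islands were found at 9 promoters in control and the same 9 in kd, with Phf19 the exception, where the background was 16.0% in control and 30.9% in kd. Ezh2 itself was called at 1 promoter in each condition (background 7.13% and 12.6%), and H3K27me3 at 1 in control and 2 in kd (background 34.9% and 29.2%).

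**Figure D1:**
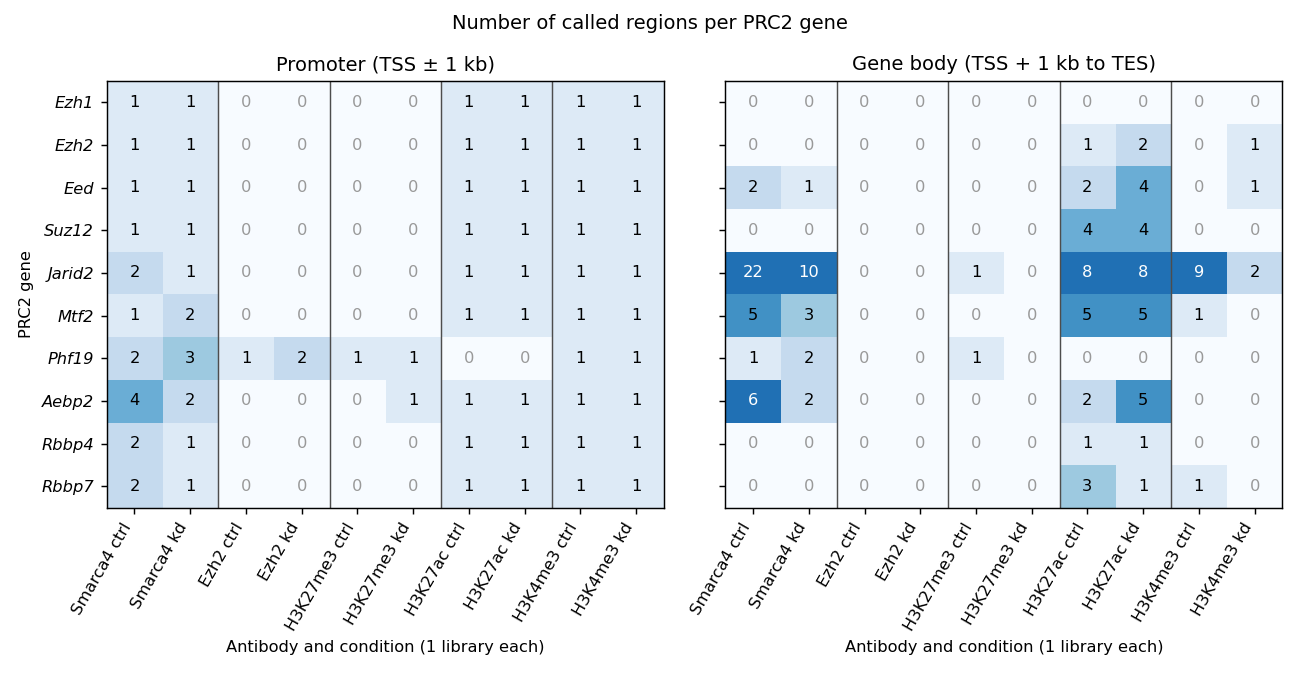
Number of called regions at the promoter (left) and in the gene body (right) of each PRC2 gene (vertical axis) in each of the 10 lists (horizontal axis, ctrl for control), with darker blue for more regions. Smarca4 and H3K4me3 were called at all 10 promoters, Ezh2 at that of Phf19 alone, and Jarid2 held 22 of 36 Smarca4 peaks in gene bodies in control.

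In combination, H3K4me3, H3K27ac and Smarca4 without H3K27me3 were called at 9 promoters in control (background 12.7%) and at 8 in kd (background 24.5%). The background was higher within the same promoter class. Among promoters with H3K4me3 and without H3K27me3, H3K27ac was called at 37.8% of 7755 in control and at 64.6% of 8515 in kd, and at all 9 and all 8 PRC2 genes of this class. A bivalent promoter was found at 1 PRC2 gene in control (background 21.2%) and at 2 in kd (background 21.6%). No PRC2 gene had a promoter call in control alone for any antibody. Over all protein-coding genes, this was found at 2.69% for Smarca4, 0.283% for Ezh2, 8.15% for H3K27me3, 1.83% for H3K27ac and 0.779% for H3K4me3. The only promoter call made in kd alone was H3K27me3 at Aebp2, and 2.39% of protein-coding genes had such a call. For the other antibodies, with 0 of 10 PRC2 genes, a call in kd alone was found at 3.69% (Smarca4), 5.78% (Ezh2), 16.8% (H3K27ac) and 4.59% (H3K4me3) of protein-coding genes. With the stricter threshold given further below, H3K27ac was called in kd alone at 2 of the 10 genes.

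Phf19 (chr2:34893757-34914026, minus strand), the Polycomb-like subunit, lay in a broad Polycomb domain in both conditions. In control, an H3K27me3 island of 18000 bp ran from 5974 bp upstream of the TSS to 12025 bp downstream, and its p-value from SICER was listed as 0. In kd, the island began at the same base and ended 8025 bp downstream, so that it spanned 14000 bp, with a −log10 p of 210.6. A further island in the gene body, 7000 bp wide, was called in control alone. In both conditions the mark therefore covered the whole promoter, and the kd call ended earlier on the side of the gene body.

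At the Phf19 TSS, the Ezh2 call was wider in kd and the Smarca4 calls were smaller. In control, a single Ezh2 peak of 308 bp lay from 246 bp upstream to 61 bp downstream of the TSS, with a MACS2 score of 88, which was higher than that of 61.5% of the control list. In kd, a peak of 759 bp with a score of 368 lay over it, stronger than 81.8% of its list, and a kd-only peak of 545 bp with a score of 255 followed downstream. The MACS2 score orders peaks within a list and is not scaled between libraries. Ezh2 peaks covered 308 bp of the promoter in control and 1304 bp in kd.

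Smarca4 flanked the Phf19 TSS with a pair of peaks in control, which had scores of 212 and 192. In kd, 3 peaks were called there, with scores of 29, 95 and 49, and the bases covered went from 1826 to 924. The strongest Smarca4 peak of Phf19 was stronger than 90.8% of the control list and than 68.2% of the kd list. In the sequence shown for Phf19, Ezh2 covered all 200 bases in both conditions, while Smarca4 covered 97 bases in control and 0 in kd. The H3K4me3 island of Phf19 spanned 2200 bp in control and 1800 bp in kd, the narrowest of the 10 genes in both. The nearest H3K27ac island to the TSS was 6375 bp away in control and 6775 bp in kd.

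**Figure D2:**
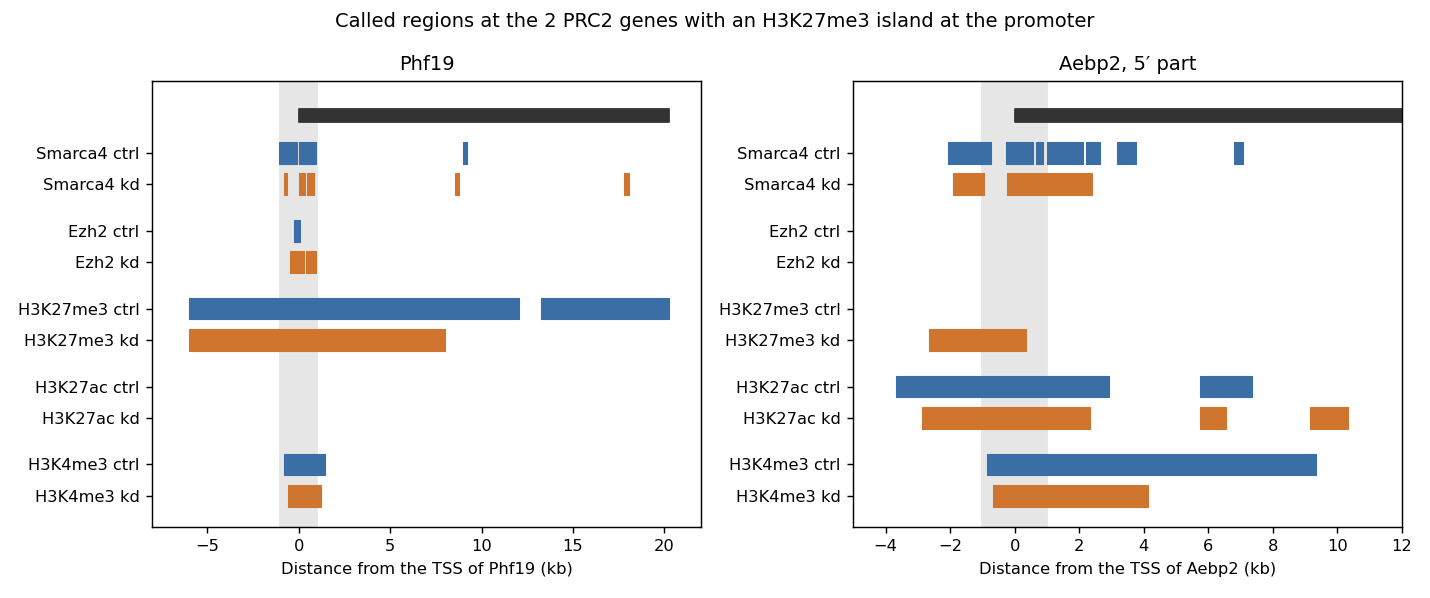
Regions called at the promoter or in the gene body of Phf19 (left) and at the 5′ part of Aebp2 (right), drawn to scale against the distance from the TSS in kb, with positive values into the gene; blue bars are control, orange bars kd, the black bar is the gene and the grey band the promoter. At Phf19 the Ezh2 calls covered 308 bp of the promoter in control and 1304 bp in kd while the Smarca4 calls covered 1826 and 924 bp, and at Aebp2 an H3K27me3 island was called in kd alone.

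These directions at Phf19 were common among promoters of its class. Ezh2, H3K27me3, H3K4me3 and Smarca4 were called in both conditions at 1313 protein-coding promoters. Of these, 95.9% had more bases in Ezh2 peaks in kd and 68.8% a higher rank of the strongest Ezh2 peak. Fewer bases in Smarca4 peaks in kd were found at 67.3%, a lower rank of the strongest Smarca4 peak at 79.1%, and a narrower H3K27me3 island at 57.2%. Over all 13117 promoters with Smarca4 in both conditions, 51.6% had fewer bases in Smarca4 peaks in kd, as did 5 of the 10 PRC2 genes.

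The other 9 genes had no Ezh2 peak at the promoter or in the gene body. From their TSS, the nearest Ezh2 peak was between 43053 and 281195 bp away in control and between 19672 and 660211 bp in kd. This distance was not taken over all genes, and the whole lists held 6708 Ezh2 peaks in control and 5364 in kd. Apart from the kd island over the TSS of Aebp2, H3K27me3 came closest at Rbbp7 and Ezh1. At Rbbp7 the nearest island was 1002 bp from the TSS in control and 2202 bp in kd. At Ezh1 an island lay 1138 bp away in both conditions. The islands at Ezh1, and that at Rbbp7 in control, lay just outside the promoter window. At Suz12, the nearest H3K27me3 island was 156095 bp away in control and 157895 bp in kd.

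Aebp2 (chr6:140622663-140678472, plus strand), a subunit of PRC2.2, was the gene with an H3K27me3 promoter call in kd alone. This island ran from 2662 bp upstream to 337 bp downstream of the TSS with a −log10 p of 14.8, which was stronger than 26.8% of the kd list. The call was lost with a stricter threshold of −log10 p of 20, and the nearest control island lay 5663 bp away. The bases shown for Aebp2 lay wholly within the kd island, and the same bases were covered by H3K27ac, H3K4me3 and Smarca4 regions in both conditions. No Ezh2 peak was nearer to the TSS than 100860 bp in control or 626623 bp in kd. The CpG-poor 5′ end of the annotated gene is not the only start of Aebp2. A RefSeq start lies 2246 bp downstream, with 14 CpG in the 250 bases before it against 1 at the annotated 5′ end, and no H3K27me3 island covered those bases in either condition.

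Smarca4 was called in more and smaller pieces at Aebp2 in control. Its promoter had 4 peaks in control, the strongest of which lay 987 to 2106 bp downstream of the TSS with a score of 672. Only 14 of its 1120 bp lay in the promoter window, and the other 3 control peaks had scores of 76, 25 and 44. In kd, 2 peaks were called, and a single peak of 2644 bp with a score of 464 ran from 252 bp upstream to 2391 bp downstream. The number of promoter bases covered differed little, at 1344 bp in control and 1306 bp in kd.

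H3K27ac promoter islands stood higher in the kd list than in the control list at every PRC2 gene that had one. This held for 9 of 9 genes, beside 80.0% of the 3099 protein-coding genes with a call in both conditions. The kd list held more islands than the control list, 51100 against 39091. Ranked among promoter islands only, a comparison added after the data were seen, 8 of 9 genes stood higher in kd, beside 69.4%. The exception was Eed, whose island was stronger than 81.3% of promoter islands in control and 73.9% in kd. The strength of an island is given here as −log10 of its SICER p-value, and these values carry no scaling between libraries. It was higher in kd at all 9 genes, beside 80.2% of genes.

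The genes differed widely in this measure. In control, Jarid2 had the strongest H3K27ac island, with −log10 p of 166.2, followed by Suz12 with 76.1 and Mtf2 with 63.2. In kd, p was listed as 0 at both Jarid2 and Suz12, which cannot be ordered, and Mtf2 had 152.6. These 3 islands were stronger than at least 98.7% of their list in each condition. Eed had close values, 25.5 in control and 26.9 in kd.

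The remaining H3K27ac islands had lower values in control, where the highest of them, at Ezh2, was stronger than 44.1% of the list. Ezh2 had −log10 p of 13 in control and 36.4 in kd, and its paralogue Ezh1 had 6.33 in control and 12.9 in kd. Rbbp4 had 10.4 in control and 36.2 in kd, close to its paralogue Rbbp7 with 10.8 and 38.9. By rank in the list, the widest span was found at Aebp2, with 5.2 in control, above 1.45% of the list, and 29.7 in kd, above 83.5% of the list. The paralogues Rbbp4 and Rbbp7 thus lay close together in both conditions, whereas Ezh1 lay below Ezh2 in both.

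**Figure D3:**
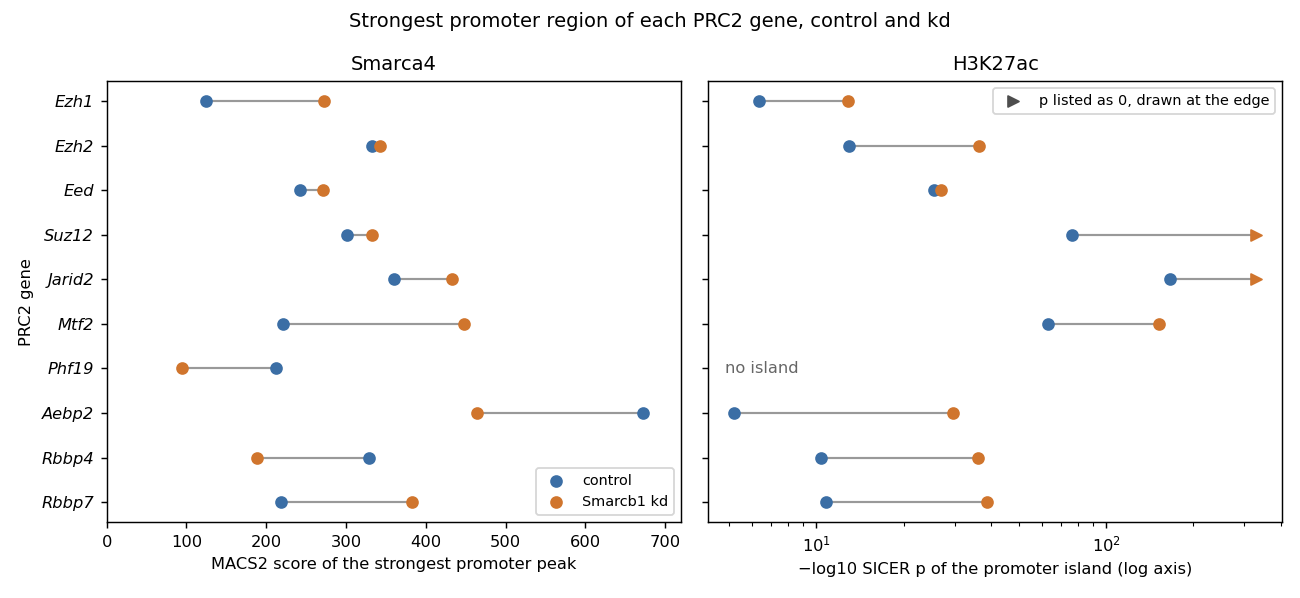
Strongest promoter region of each PRC2 gene in control (blue) and kd (orange), as the MACS2 score of Smarca4 peaks (left) and as −log10 of the SICER p-value of H3K27ac islands on a log axis (right), with grey lines joining the conditions; triangles are islands whose p was listed as 0. H3K27ac values were higher in kd at all 9 genes with an island, and Smarca4 scores were higher in kd at 7 of 10 genes, with Aebp2 turning with a window of 500 bp.

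In width, the H3K27ac promoter islands did not move one way. They were narrower in kd at 3 of 9 genes, namely Ezh1, Ezh2 and Aebp2, beside 55.4% of all genes with a call in both conditions. The island over Suz12 spanned 15400 bp in control and 31000 bp in kd, and its kd call reached 24305 bp upstream of the TSS, compared with 8705 bp in control. Downstream it ended at the same base, 6694 bp into the gene. That island was the 15th widest of the kd list and the 223rd widest of the control list. At Jarid2 the island spanned 20200 bp in control and 22400 bp in kd, and at Mtf2 9600 bp and 13400 bp.

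Smarca4 scores at the promoters did not all differ in the same direction. The score of the strongest promoter peak was higher in kd at 7 of 10 genes, beside 51.4% of 13117 genes, and its rank in the list at 6 of 10, beside 47.3%. Ranked among promoter peaks only, 7 of 10 genes stood higher in kd, beside 51.8%. Among the catalytic subunits, Ezh1 (chr11:101191115-101226463, minus strand) had a score of 124 in control and 272 in kd, and Ezh2 had 333 and 342. Of the other core genes, Eed had 242 in control and 271 in kd, and Suz12 (chr11:79993106-80034123, plus strand) had 301 and 332. At Ezh2, Eed and Suz12 the scores of the conditions thus lay close together.

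The histone chaperone genes differed. Rbbp4 (chr4:129307100-129335370, minus strand) had a score of 329 in control and 188 in kd, whereas Rbbp7 (chrX:162760402-162779092, plus strand) had 219 and 383. At both genes, 2 control peaks corresponded to 1 kd peak, which spanned 2111 bp at Rbbp4 and 2683 bp at Rbbp7. At Rbbp4 the joined kd peak lay over the 250 bases shown, which in control fell between the peaks. The promoter window of Rbbp4 also holds the TSS of the divergent gene Zbtb8os, 325 bp away, so its regions cannot be assigned to one of these genes.

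Among the accessory subunits, Mtf2 (chr5:108065674-108109004, plus strand) had the largest difference in Smarca4 score with the window of 1 kb, with 221 in control and 448 in kd. Jarid2 had 360 and 433, and Phf19 had a lower score in kd. At Aebp2 the direction rested on the edge of the promoter window. Its strongest peak overlapping the window of 1 kb had a score of 672 in control and 464 in kd. With a window of 500 bp the scores were 25 and 464, a larger difference than at Mtf2. The kd peak was the same in both windows and also spanned the place of the control peak scored 672. The narrower window thus sets a joined kd peak beside 1 piece of the control calls. With the narrower window, chosen after the data were seen, 8 of 10 genes had the higher score in kd, beside 52.0% of 12656 genes. Of 14 kd promoter peaks, 1 overlapped no control peak, a weak peak at Mtf2 with a score of 21, beside 13.4% of the promoter peaks of all protein-coding genes. Of 17 control promoter peaks, 0 overlapped no kd peak, beside 12.7%. The promoter window of Eed also holds the start of the antisense transcript E230029C05Rik, and that of Aebp2 the start of Gm44013.

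H3K4me3 promoter islands were narrower in kd at 9 of 10 genes, beside 60.8% of 12239 genes with a call in both conditions. Jarid2 had the widest island, with 28000 bp in control and 24600 bp in kd. Mtf2 was next and was the exception, with 22000 bp in control and 22200 bp in kd. By rank, the island of Jarid2 was the 26th widest of the control list and the 12th widest of the kd list, and that of Mtf2 the 47th and the 17th.

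Narrower kd islands were found over the core genes. The island over Eed spanned 13000 bp in control and 9000 bp in kd, and that over Suz12 10400 bp and 8200 bp. Ezh2 had 4200 bp in control and 3400 bp in kd, and Ezh1 had 3400 bp and 2400 bp. The islands over Ezh1 and Ezh2 were thus much narrower than those over Eed and Suz12 in both conditions.

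At Rbbp7 the island spanned 10000 bp in control and 6200 bp in kd, and at Rbbp4 7000 bp and 4600 bp. Aebp2 had 10200 bp in control and 4800 bp in kd, where its downstream end moved from 9337 to 4137 bp past the TSS. A total of 2000 H3K4me3 islands in control and 4619 in kd had a p listed as 0, so the strength of these islands was not ranked.

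**Figure D4:**
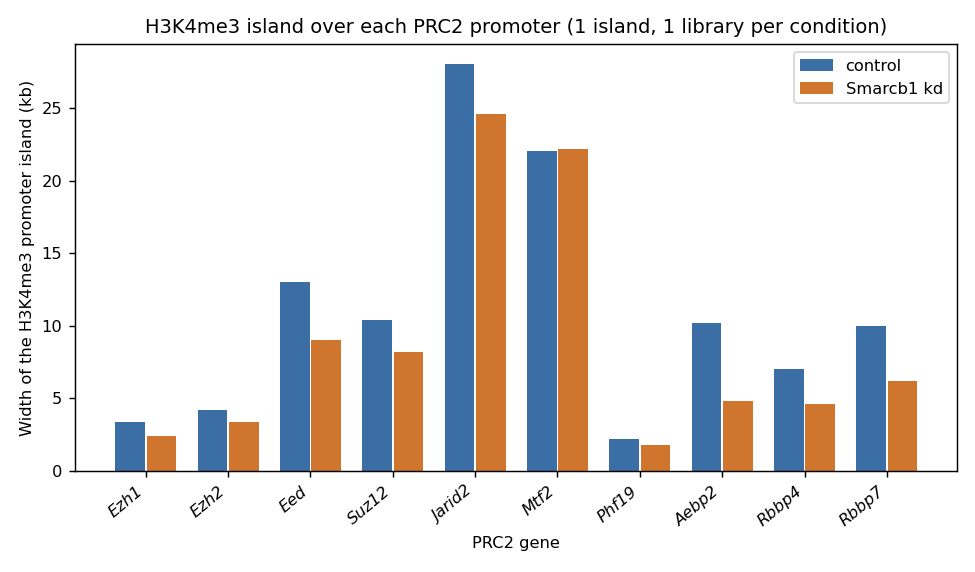
Width in kb of the H3K4me3 island over the promoter of each PRC2 gene in control (blue) and kd (orange), with 1 island per bar and no error, since there was 1 library per condition. The bars range from 1800 to 28000 bp, and the kd bar is the lower one at all genes except Mtf2.

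Within the gene bodies, fewer Smarca4 peaks and H3K4me3 islands were called in kd, mostly in Jarid2. Smarca4 peaks in gene bodies numbered 36 in control and 18 in kd, over all protein-coding genes 35275 and 27488. The same 5 genes had one in each condition (background 41.1% in control and 40.4% in kd), namely Eed, Jarid2, Mtf2, Phf19 and Aebp2. Of the 36 control peaks, 24 overlapped no kd peak, beside 54.8% of such peaks over all protein-coding genes. Of the 18 kd peaks, 10 overlapped no control peak, beside 36.5%. Without Jarid2, the longest of the 10 genes, 14 peaks remained in control and 8 in kd.

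H3K4me3 islands in gene bodies numbered 11 in control and 4 in kd, whereas those of all protein-coding genes numbered 5481 and 7559. They lay in 3 genes in each condition (background 17.8% and 22.7%), of which Jarid2 was common to both. Body islands in control alone were found at 2 genes (background 2.33%) and in kd alone at 2 (background 7.26%). Outside Jarid2, 2 were called in control, at Mtf2 and Rbbp7, and 2 in kd, at Ezh2 and Eed. Counting also the parts of promoter islands that reach into the gene, H3K4me3 covered 28.2% of the bases of the 10 gene bodies in control and 13.5% in kd, beside 3.54% and 4% over all protein-coding genes. Much of this difference lay in Jarid2, with 43.2% in control and 14% in kd. Without Jarid2 the share was 19.5% in control and 13.3% in kd.

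H3K27ac islands in gene bodies numbered 26 in control and 30 in kd, in the same 8 genes (background 22.9% and 31.8%). The order of these counts depended on the lists, since with lists of equal length they were 26 and 19, and without islands at least 50% repeat-masked 19 and 17. Together with the parts of promoter islands that reach into the gene, H3K27ac covered 21.8% of the gene bodies in control and 18.1% in kd, beside 4.23% and 4.78% over all protein-coding genes. Suz12 and Mtf2 had the largest shares in both conditions, with 71.2% in control and 53.7% in kd at Suz12 and 63.6% and 56.1% at Mtf2. At Rbbp7 the share was 56.5% in control and 27.1% in kd. The median width of the body islands was 2200 bp in control and 1600 bp in kd.

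H3K27me3 islands that did not touch the promoter window were called in the body of Phf19 and of Jarid2 in control (background 19.1%) and of none in kd (background 14.3%). The promoter island of Phf19 reached into the gene in both conditions, and H3K27me3 covered 93.5% of its body in control and 36.5% in kd. Such a call in control alone was found at 8.48% of protein-coding genes. No Ezh2 peak lay in any of the 10 gene bodies (background 7.75% in control and 5.25% in kd).

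Jarid2 (chr13:44729474-44921643, plus strand), which links PRC2 to ubiquitinated chromatin, had the most regions of the 10 genes. Its body held 22 Smarca4 peaks in control and 10 in kd. The control peaks were dense in the first part of the gene, where 15 peaks lay between 1146 and 26679 bp past the TSS. Within the first 27 kb, a limit set after the control peaks were seen, 3 kd body peaks were called. The kd promoter peak, which reached 2067 bp past the TSS, is not counted among them. It covered the control body peaks at 1146 to 1434 and 1538 to 2064 bp, so part of this difference is one of placement. RefSeq starts of Jarid2 lie 1300 and 1797 bp past the TSS. The strongest body peak of Jarid2 lay 3640 to 5363 bp past the TSS in control, with a score of 320, and 3566 to 5029 bp in kd, with a score of 200, and it overlapped an exon in both.

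H3K4me3 spread far into Jarid2 in control. Beyond the promoter island, 9 further islands reached to 121326 bp past the TSS, and 8 of them overlapped no kd island. Over the bodies of the 10 genes this was found for 10 of 11 control islands, beside 13.0% for all protein-coding genes. Of these 11 islands, 9 lay in Jarid2, several of them close neighbours that are not independent of each other. The share therefore mostly describes Jarid2 and not the 10 genes as a set. In kd, 2 islands were called in the body of Jarid2. That at 116327 to 118326 bp was shared with control, and that at 171327 to 174126 bp was called in kd alone. With the promoter island, H3K4me3 covered 43.2% of the gene body in control and 14% in kd. H3K27ac islands numbered 8 in each condition and covered 12.2% and 10.8%, which is a far smaller difference than that in H3K4me3.

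A short H3K27me3 island of 800 bp, with a −log10 p of 21.8, was called in Jarid2 in control alone. It lay 139927 to 140726 bp past the TSS, within an intron, and overlapped Smarca4 peaks of both conditions. In kd, no H3K27me3 island was called at this place, while the Smarca4 peaks there had scores of 57 and 76, against 40 in control.

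**Figure D5:**
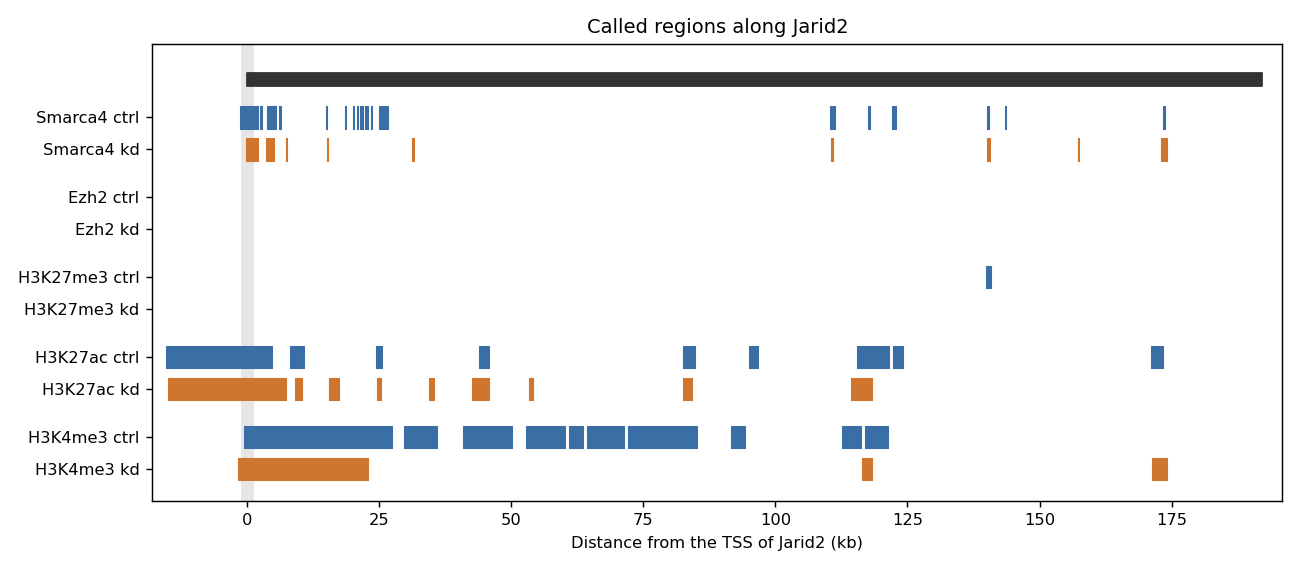
Regions called at the promoter or in the body of Jarid2, drawn to scale against the distance from the TSS in kb; blue bars are control, orange bars kd, the black bar is the gene and the grey band the promoter. In the first 27 kb, a limit set after the control peaks were seen, 15 Smarca4 body peaks were called in control and 3 in kd. The kd promoter peak of Smarca4 reaches 2067 bp and covers the control body peaks nearest to the TSS. H3K4me3 islands of the control list extend to 121326 bp.

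At Eed and Ezh2, kd-only regions of several antibodies coincided inside the gene. In Eed (chr7:89954654-89980983, minus strand), an H3K4me3 island of 1000 bp and an H3K27ac island of 2000 bp ended at the same base, 16182 bp past the TSS, and a Smarca4 peak of 215 bp lay in both. The most downstream annotated coding start of Eed lies 16142 bp past the TSS, within these islands. In Ezh2 (chr6:47530139-47595341, minus strand), an H3K4me3 island of 3000 bp and an H3K27ac island of 2600 bp overlapped, beginning 55141 and 55341 bp past the TSS, close to a coding start at 54606 bp. Control regions were called at neither place. These places were rich in repeats, as 96.6% of the H3K4me3 island in Ezh2 and 62.6% of that in Eed were repeat-masked bases. They were singled out after their values were seen.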

How the data were processed

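The data are lists of regions from 10 immunoprecipitated libraries; 4 input samples have no file here. By the methods, the authors trimmed reads with Trim Galore, aligned them with Bowtie2 to mm10, filtered them with SAMtools 1.9, and called Smarca4 and Ezh2 peaks with MACS2 and histone islands with SICER in 200 bp windows. The background is uncertain: the methods name input, whereas the labels of these samples and peak names say IgG. Peaks carry the deposited MACS2 score, islands the deposited SICER p-value, by which the authors filtered the lists, and the highest was 9.99e-06 for H3K27ac and 9.97e-11 for the other marks. Neither is scaled between libraries.

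Regions on autosomes, X and Y were placed on GENCODE M21 genes (GRCm38), whereas the methods name a later release, with an overlap of at least 1 bp. The TSS was the 5′ end of the gene. A gene body region overlapped the body but not the promoter window. A region without overlap in the other condition was called control-only or kd-only. Backgrounds are shares of protein-coding genes with a region. Lower-case letters of the reference were read as repeat-masked. With 1 library per group, no test was made. Placement was tested on simulated regions. Python 3.11.15, numpy 2.4.6 and bedtools 2.31.1 were used.

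The genes, lists and alternatives were chosen with earlier results of these data known. Named are the 10 PRC2 genes, a list of 7 further genes of PRC2 cofactors and H3K27 demethylases, and neighbours with a TSS within 1 kb. Promoter calls of the 7 are given by gene where they differ between conditions. Alternatives were a stricter threshold, an overlap of 200 bp, promoters of 500 bp or 2 kb to either side, all coding TSS, merged regions, lists of equal length, repeat-masked regions left out and all annotated genes.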

Additional observations from a re-analysis of the deposited data

How the results depend on the processing

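With a stricter threshold (a score of 50 or more, and −log10 p of 10 or more for H3K27ac islands and of 20 or more otherwise), H3K27me3 was called at 1 promoter in kd and at 0 in kd alone, so that the call at Aebp2 was lost, and H3K27ac was called in kd alone at 2 promoters. Gene body regions then numbered 21 in control and 11 in kd for Smarca4, 16 and 17 for H3K27ac, and 7 and 1 for H3K4me3. Without regions that were at least 50% repeat-masked, 17 H3K27ac and 1 H3K4me3 body islands were left in kd (19 and 11 in control), and with lists of equal length 19 and 1 (26 and 11 in control), so that the order of the H3K27ac counts turned in both. With promoters of 2 kb to either side, H3K27me3 was called at 3 promoters in control and at 1 in control alone. With the TSS of every coding transcript, 2 H3K4me3 body islands were left in kd. The cause of these differences was not tested, beyond the regions each setting removes. An overlap of 200 bp, promoters of 500 bp to either side and merging of touching regions kept all 30 counts within 1.5 times. Leaving out Jarid2, chosen after the data were seen, left 14 Smarca4 body peaks in control and 8 in kd, 1 H3K27me3 body island in control, and 2 H3K4me3 body islands in each condition. Ranked among promoter regions, also chosen after the data were seen, Smarca4 stood higher in kd at 7 of 10 genes and H3K27ac at 8 of 9. With Smarca4 peaks within 500 bp of the TSS, also added later, the difference in score at Aebp2, kd minus control, turned from -208 to 439. Over all annotated genes, the promoter backgrounds in control and kd were 34% and 34.4% for Smarca4, 4.12% and 6.7% for Ezh2, 23% and 18.6% for H3K27me3, and 29.7% and 32.1% for H3K4me3, and 18.9% for H3K27ac in kd.

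No paired analysis was possible because there was 1 library per antibody and condition, which also left no replicate to leave out. Differences between conditions are therefore differences between pairs of libraries of unknown depth.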

Other observations

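The 7 further genes of the pathway were Phf1 and Epop (PRC2.1), Lcor and Lcorl (PRC2.1 cofactor genes), AU022751 (the mouse Ezhip gene, an inhibitor of PRC2), and Kdm6a and Kdm6b, which encode demethylases of H3K27. At their promoters, Smarca4 was called at 6 of 7 in control and at 7 in kd, with AU022751 called in kd alone. H3K4me3 was called at 6 in both conditions and Ezh2 at 0. H3K27ac was called at 2 promoters in control and at 5 in kd, and Kdm6a, Kdm6b and Lcorl were called in kd alone, a class that held 16.8% of all protein-coding genes. H3K27me3 was called at AU022751 and Kdm6b in control alone, where the background was 8.15%, and at Lcorl in kd alone, where it was 2.39%. Both demethylase genes were among those with H3K27ac called in kd alone. That H3K27ac class held 0 of the 10 PRC2 genes, or 2 with the stricter threshold.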
